A study of Mus musculus with 10 samples.

Results

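The transcripts of 8 genes linked to natural killer (NK) cells were followed in bulk RNA sequencing of B16F10 melanoma tumors. They were chosen by symbol and comprised the receptor genes Ncr1, Klrb1c, Klrk1, Klrd1, Klrc1 and Klrc2, the transcription factor gene Eomes and the chemokine gene Xcl1. All 8 were found among the 27919 gene symbols of the table. The Ly86 tumors grew from B16F10, a mouse melanoma line, made to overexpress Ly86, and the Vector tumors from B16F10 with the vector. Mice of both groups received anti-PD-1 with anti-CTLA4 checkpoint antibodies for 4 rounds, so every tumor was a treated one, and tumors were snap-frozen after harvest. Promoter of the construct, number of clones, and strain, sex and age of the mice are not given in the sources used here. The data comprised 5 libraries of 4 Ly86 tumors and 5 libraries of 3 Vector tumors, because Ly86 tumor 1, Vector tumor 1 and Vector tumor 2 were each sequenced as 2 pieces.

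NK cells are innate lymphocytes that kill target cells according to the balance of activating and inhibitory receptors. In the mouse, Ncr1 (NKp46) and Klrb1c (NK1.1) encode activating receptors that are used to define NK cells and related innate lymphoid cells. Klrk1 encodes NKG2D, which binds stress-induced relatives of MHC class I and signals through the adaptor DAP10. Klrd1 encodes CD94, which pairs with the inhibitory chain NKG2A (Klrc1) or the activating chain NKG2C (Klrc2) to read the nonclassical class I molecule Qa-1. Eomes is a T-box factor needed for NK cell maturation. Xcl1 encodes lymphotactin, which attracts dendritic cells that carry its receptor Xcr1. Activated CD8 T cells can also express Klrk1, Klrd1, Klrc1, Eomes and Xcl1, so these transcripts do not mark NK cells alone.

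Klrb1c, Klrk1, Klrd1, Klrc1 and Klrc2 lie on mouse chromosome 6 in the NK gene complex. In the RefSeq annotation of GRCm38.p6, Klrd1, Klrk1, Klrc3, Klrc2 and Klrc1 are consecutive protein-coding genes. Ncr1 lies on chromosome 7, Eomes on chromosome 9 and Xcl1 on chromosome 1. Klrc1, Klrc2 and Klrc3 are close relatives whose reads can be split between them, and the same holds for the Klrb1 family, so their separate values are uncertain. RefSeq promoter windows of 300 bases, most of them upstream of the annotated start, matched 7 of the 8 genes. The RUNX core TGTGGT or its reverse complement ACCACA was found in 6 of these 7 windows, those of Xcl1, Klrb1c, Klrk1, Klrc2, Klrc1 and Ncr1, and in 16.9% of all 27025 windows. The T-box half-site TCACAC or GTGTGA was found in 2 of the 7, those of Xcl1 and Ncr1, and in 14.4% of all windows. The letters were chosen after the sequences had been seen, and a match is no evidence of binding. Windows of Ncr1 (chr7:4337465-4337764, plus strand), Klrk1 (chr6:129623815-129624114, minus strand), Klrc1 (chr6:129678924-129679223, minus strand) and Xcl1 (chr1:164935473-164935772, minus strand), all in GRCm38.p6, are printed 5′ to 3′ to show starts from the 3 loci with a match, with the RUNX core in capitals.
Ncr1: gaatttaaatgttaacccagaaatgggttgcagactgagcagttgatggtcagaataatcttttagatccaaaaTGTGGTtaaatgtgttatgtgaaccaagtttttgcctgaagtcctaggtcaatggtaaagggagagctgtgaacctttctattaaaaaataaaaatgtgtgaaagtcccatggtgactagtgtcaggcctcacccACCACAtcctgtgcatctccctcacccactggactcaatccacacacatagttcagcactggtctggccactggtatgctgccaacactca
Klrk1: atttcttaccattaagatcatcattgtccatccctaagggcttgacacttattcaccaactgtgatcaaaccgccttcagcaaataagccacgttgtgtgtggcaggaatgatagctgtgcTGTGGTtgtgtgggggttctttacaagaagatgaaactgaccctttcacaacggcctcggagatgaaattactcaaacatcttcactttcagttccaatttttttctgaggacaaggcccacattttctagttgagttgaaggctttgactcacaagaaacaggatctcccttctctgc
Klrc1: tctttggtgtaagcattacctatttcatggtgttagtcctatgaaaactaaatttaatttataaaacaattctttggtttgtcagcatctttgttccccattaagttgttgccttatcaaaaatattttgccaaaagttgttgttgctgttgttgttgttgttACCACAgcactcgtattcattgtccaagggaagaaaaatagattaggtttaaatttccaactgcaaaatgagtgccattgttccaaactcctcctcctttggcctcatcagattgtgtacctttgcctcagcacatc
Xcl1: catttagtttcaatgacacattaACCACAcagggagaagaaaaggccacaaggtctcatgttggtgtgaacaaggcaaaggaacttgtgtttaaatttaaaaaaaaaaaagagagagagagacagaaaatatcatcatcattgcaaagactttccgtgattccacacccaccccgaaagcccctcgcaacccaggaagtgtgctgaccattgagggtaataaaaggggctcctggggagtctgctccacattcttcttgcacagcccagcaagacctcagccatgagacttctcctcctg

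Ly86 itself held 49.2 to 81.9 TPM (transcripts per 1000000 transcripts, a scale that allows for length) in the libraries of Ly86 tumors. In those of Vector tumors it held 6.24 to 80.9 TPM, and only the first piece of Vector tumor 2 lay within the Ly86 range. These values do not tell transcripts of the construct from those of the mouse's own gene, so they cannot check the labels. Pigment cell markers were high in every library, with summed levels of 7 genes of 13580 to 19840 TPM in Ly86 and 9752 to 18800 TPM in Vector libraries. Read depth is unknown, since TPM does not keep it, and 19304 to 21882 genes had a value above 0 in a library.

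All 8 genes averaged higher in the Ly86 tumors than in the Vector tumors, and none of the differences passed the test over all genes. Of all genes in the table, 47.1% averaged higher in Ly86 tumors, and so did 43.8% of the genes with a mean of at least 1 TPM. In whole tumors, fewer cells of a type and less RNA per cell cannot be told apart. The median of the 8 differences was 0.73 log2(TPM + 1) units, against -0.0086 over all genes of the table. Only 5 of the 8, Klrk1, Klrd1, Klrc1, Eomes and Xcl1, reached the mean of 1 TPM required to be among the 14556 genes tested. Here limma called 0 genes (0% of those tested) at an adjusted p under 0.05. At an unadjusted p under 0.05, limma counted 3 of the 8 genes as higher in Ly86 tumors, Klrd1, Klrc1 and Xcl1, where 5.78% of all tested genes met that mark in the same direction. Without the filter on low values, limma counted 2 of the 8, Ncr1 and Xcl1, against 3.28% of all genes. The count of 3 was 0 when Ly86 tumor 1, 2 or 4 or Vector tumor 1 was left out, and also 0 when first pieces alone stood for the divided tumors. In every one of the 8 genes the ranges of the Ly86 and Vector tumors overlapped, whereas 3.07% of all genes in the table and 4.71% of those tested had their Ly86 tumors entirely above their Vector tumors. The number of the 8 genes with no overlap, 0 in all tumors, was 4 without Ly86 tumor 3, 3 without Vector tumor 2, 1 without Vector tumor 3 and 3 when Vector tumor 2 kept only its second piece. No share of all genes is given for these settings. Leaving out a tumor makes a lack of overlap easier for any gene, so these counts are no result about the 8 genes.

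**Figure D1:**
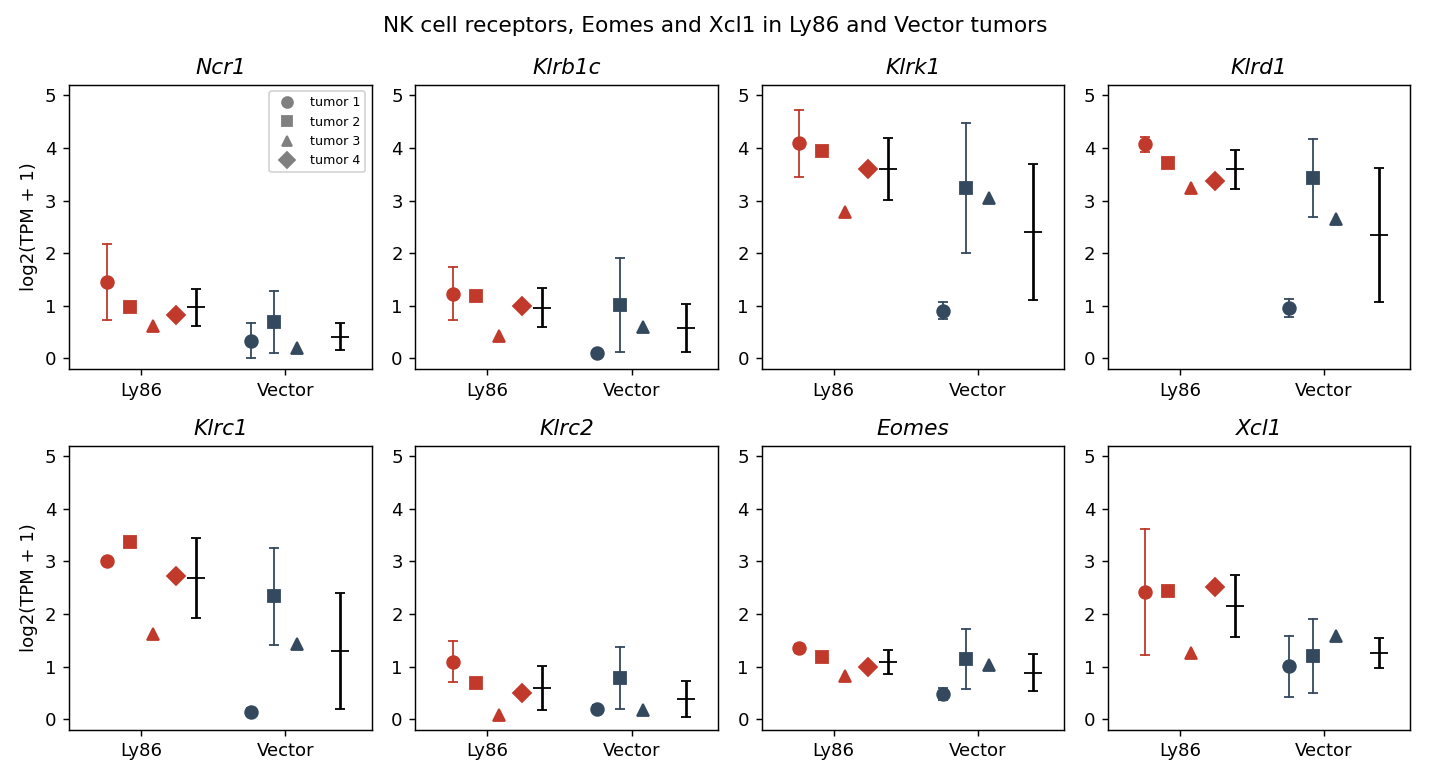
Levels of the 8 genes on the log2(TPM + 1) scale, with 1 panel per gene. Symbols are tumors (pieces averaged), thin bars span the pieces of divided tumors, and black bars give the mean and SD of each group. Vector tumor 1 lies lowest of all tumors for Klrk1, Klrd1, Klrc1, Klrb1c, Eomes and Xcl1, and the pieces of Vector tumor 2 lie far apart.

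The NK-defining receptors were scarce, with Ncr1 and Klrb1c averaging 0.80 and 0.88 TPM over all tumors and Ncr1 listed at 0 in 1 library. Ncr1 held 0.66 and 3.51 TPM in the pieces of Ly86 tumor 1 and 0.97, 0.54 and 0.77 TPM in Ly86 tumors 2 to 4, against 0 and 0.60 TPM in the pieces of Vector tumor 1, 1.44 and 0.08 TPM in those of Vector tumor 2 and 0.15 TPM in Vector tumor 3. Ly86 tumor 3, the lowest of its group, lay below Vector tumor 2 on the averaged scale, and the other Ly86 tumors lay above all Vector tumors. The mean was 0.97 ± 0.35 log2(TPM + 1) in Ly86 tumors (SD, n = 4), against 0.41 ± 0.26 in Vector tumors (SD, n = 3), a difference of 0.56 with an exact permutation p of 0.0857 and, without the filter, a limma adjusted p of 0.679.

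Klrb1c held 0.66 and 2.33 TPM in the pieces of Ly86 tumor 1 and 1.29, 0.35 and 0.99 TPM in Ly86 tumors 2 to 4, against 0.04 and 0.12 TPM in Vector tumor 1, 2.76 and 0.09 TPM in Vector tumor 2 and 0.52 TPM in Vector tumor 3. Its highest library of all was thus the first piece of Vector tumor 2. The difference between the groups was 0.39 log2 units (exact permutation p = 0.257). It was 0.15 without Vector tumor 1, 0.61 without Vector tumor 2 and -0.019 when first pieces alone stood for the divided tumors.

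NKG2D was the most abundant of the 8 transcripts together with CD94. Klrk1 held 9.89 and 25.5 TPM in the pieces of Ly86 tumor 1 and 14.5, 5.88 and 11.1 TPM in Ly86 tumors 2 to 4, against 1.09 and 0.69 TPM in Vector tumor 1, 21.2 and 3.02 TPM in Vector tumor 2 and 7.29 TPM in Vector tumor 3. Vector tumor 1 stood far below the others, and Ly86 tumor 3 was lower than Vector tumors 2 and 3. Klrk1 averaged 3.61 ± 0.59 log2(TPM + 1) in Ly86 tumors (SD, n = 4), against 2.40 ± 1.29 in Vector tumors (SD, n = 3). That difference of 1.20 (SE 0.58) had a limma adjusted p of 0.495 and an unadjusted p of 0.0701. It was 0.46 without Vector tumor 1 and 0.58 from first pieces alone.

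The means of CD94 and its NKG2A partner were also higher in Ly86 tumors, by amounts that depended on Vector tumor 1. Klrd1 held 14.2 and 17.5 TPM in the pieces of Ly86 tumor 1 and 12.2, 8.40 and 9.33 TPM in Ly86 tumors 2 to 4, against 0.72 and 1.18 TPM in Vector tumor 1, 17.03 and 5.47 TPM in Vector tumor 2 and 5.30 TPM in Vector tumor 3. Averaged over pieces, Vector tumor 2 exceeded Ly86 tumors 3 and 4. The means were 3.60 ± 0.37 log2(TPM + 1) in Ly86 tumors (SD, n = 4), against 2.35 ± 1.27 in Vector tumors (SD, n = 3), a difference of 1.25 (SE 0.53, limma adjusted p = 0.456, unadjusted p = 0.0454). Without Vector tumor 1 the difference was 0.55.

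Klrc1, the inhibitory chain, held 7.31 and 6.72 TPM in the pieces of Ly86 tumor 1 and 9.34, 2.07 and 5.64 TPM in Ly86 tumors 2 to 4, against 0.16 and 0.05 TPM in Vector tumor 1, 8.57 and 1.67 TPM in Vector tumor 2 and 1.70 TPM in Vector tumor 3. Only Ly86 tumor 3 lay within the Vector range. Klrc1 averaged 2.68 ± 0.75 log2(TPM + 1) in Ly86 tumors (SD, n = 4), against 1.304 ± 1.10 in Vector tumors (SD, n = 3), which gave a difference of 1.38 (SE 0.57, limma adjusted p = 0.455, unadjusted p = 0.0423). Without Vector tumor 1 it was 0.80. Klrc1 was the single gene of the 8 called under any setting tried, with a limma adjusted p of 0.0324 under array weights, a setting that called 1832 of the 14556 genes (12.6%). That fit stopped short of its convergence tolerance and weighted Vector tumor 3 at 22.8, with all other tumors below 1. Over all settings in which it was tested its adjusted p reached from 0.0324 to 1.

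Klrc2, the activating chain, stayed at 0.06 to 1.80 TPM in Ly86 and 0.09 to 1.58 TPM in Vector libraries, and its groups differed by 0.21 log2 units (exact permutation p = 0.571). From first pieces alone that difference was -0.11, and with a tumor left out it lay between 0.037 (without Ly86 tumor 1) and 0.41 (without Vector tumor 2). Klrc3, its neighbour, named here after its values were seen, was listed at 0 in 8 of 10 libraries.

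Eomes, like Klrc2, had a difference smaller than its SE. It held 1.39 and 1.70 TPM in the pieces of Ly86 tumor 1 and 1.27, 0.76 and 0.99 TPM in Ly86 tumors 2 to 4, against 0.28 and 0.51 TPM in Vector tumor 1, 2.26 and 0.48 TPM in Vector tumor 2 and 1.05 TPM in Vector tumor 3. The difference of 0.20 log2 units (SE 0.28, limma adjusted p = 0.833) was -0.0014 without Vector tumor 1. Tbx21, which encodes the related T-box factor T-bet, differed by 0.68 (SE 0.36, limma adjusted p = 0.537).

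Among the 8 genes, Xcl1 had the widest gap between pieces in Ly86 tumor 1 and in Vector tumor 1, though not in Vector tumor 2. It held 1.32 and 11.2 TPM in the pieces of Ly86 tumor 1 and 4.40, 1.40 and 4.69 TPM in Ly86 tumors 2 to 4, against 0.34 and 2.01 TPM in Vector tumor 1, 2.74 and 0.41 TPM in Vector tumor 2 and 1.98 TPM in Vector tumor 3. Ly86 tumors 1, 2 and 4 lay above every Vector tumor, and Ly86 tumor 3 lay below Vector tumor 3. The means were 2.15 ± 0.60 log2(TPM + 1) in Ly86 tumors (SD, n = 4), against 1.26 ± 0.29 in Vector tumors (SD, n = 3). Their difference of 0.89 (SE 0.35) had the smallest unadjusted limma p of the 5 genes tested, 0.0327, with an adjusted p of 0.449.

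**Figure D2:**
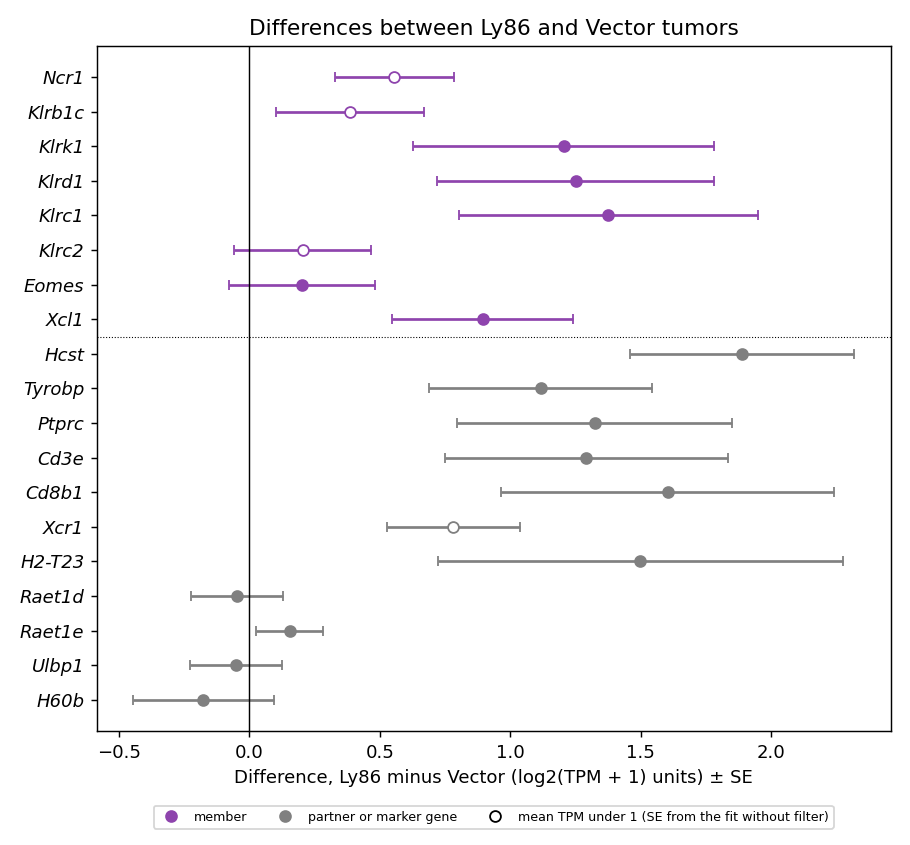
Differences between Ly86 and Vector tumors in log2(TPM + 1) units for the 8 genes (above the dotted line) and for partner and marker genes, with bars of 1 SE. Klrk1, Klrd1 and Klrc1 lie at 1.20 to 1.38, close to Ptprc at 1.32 and Cd3e at 1.29, while Klrc2 and Eomes lie near 0.2 and the NKG2D ligands near 0.

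By level, the order over the 7 tumors was Klrk1, Klrd1, Klrc1, Xcl1, Eomes, Klrb1c, Ncr1 and Klrc2, with means of 3.09, 3.06, 2.09, 1.77, 1.00, 0.80, 0.73 and 0.50 log2(TPM + 1). Klrk1 and Klrd1 could not be ordered, since Klrk1 was above Klrd1 in 4 of 7 tumors. Klrd1 was above Klrc1 in 7 of 7 tumors, with a mean gap of 0.97 ± 0.41 (SD, n = 7), and Xcl1 was above Eomes in 7 of 7. Klrc1 was above Xcl1 in 5 of 7, Eomes above Klrb1c in 5 of 7, Klrb1c above Ncr1 in 4 of 7 and Ncr1 above Klrc2 in 6 of 7.

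Pieces of the same tumor could lie as far apart as the group means. In Vector tumor 2 all 8 genes were lower in the second piece than in the first, by 1.14 to 2.47 log2 units, and so was Ptprc, the gene of the leukocyte antigen CD45, by 3.21. In Ly86 tumor 1 the genes parted: Xcl1 was higher in the second piece by 2.40, Ncr1 by 1.44, Klrk1 by 1.29 and Klrb1c by 1.00, whereas Klrc1 differed by -0.11. Between the same pieces Cd3e, a subunit of the T cell receptor complex, differed by -0.24 and Ptprc by 0.77. In Vector tumor 1, where no library held more than 2.01 TPM of any of the 8 genes, Xcl1 was higher in the second piece by 1.17 and Ncr1 by 0.68. Each piece is 1 library, so these gaps have no replicate check.

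**Figure D3:**
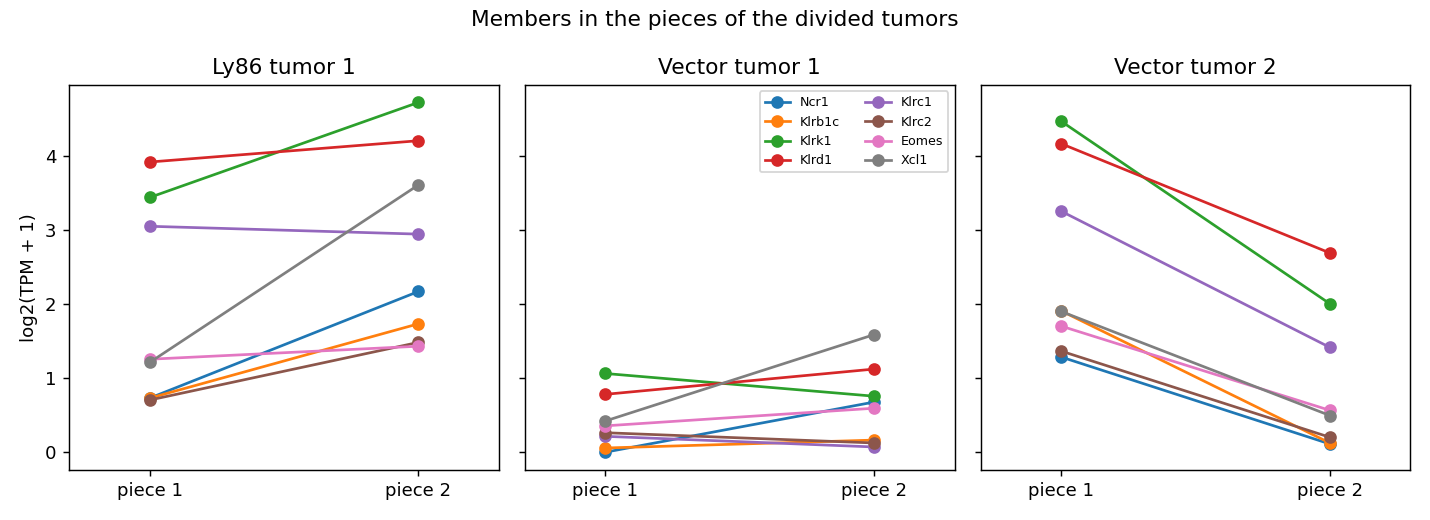
Levels of the 8 genes in log2(TPM + 1) in both pieces of Ly86 tumor 1, Vector tumor 1 and Vector tumor 2, with lines joining the pieces of a gene. All 8 lines fall in Vector tumor 2, and in Ly86 tumor 1 the Xcl1 line climbs steeply while the Klrc1 line is flat.

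Leukocyte and T cell transcripts also averaged higher in Ly86 tumors, and none of them passed the limma test after adjustment. Ptprc differed by 1.32 log2 units (SE 0.53, limma adjusted p = 0.453) and Cd3e by 1.29 (SE 0.54, limma adjusted p = 0.455). Summed over 9 T cell markers, levels were 46.4 to 113 TPM in Ly86 and 6.84 to 188 TPM in Vector libraries, and all 9 averaged higher in Ly86 tumors, by 0.49 for Cd6 to 1.61 for Cd3g with a median of 0.89 log2 units. The CD8 genes Cd8a and Cd8b1 together held 10.8 to 27.0 TPM in Ly86 and 0.79 to 36.1 TPM in Vector libraries. The 7 macrophage markers summed to 885 to 1624 TPM in Ly86 and 160 to 2600 TPM in Vector libraries. The part of these cell types in the receptor gene values was not tested.

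Set against Ptprc within each tumor as a ratio of mean TPM, the groups overlapped for 7 of the 8 genes, and 6 of the 8 log2 ratio differences were positive. Klrk1 amounted to 30.3% ± 5.0 of the Ptprc TPM in Ly86 tumors (SD, n = 4) and 25.7% ± 6.8 in Vector tumors (SD, n = 3), and Klrd1 to 29.8% ± 6.4 in Ly86 tumors and 22.7% ± 4.8 in Vector tumors. Klrc1 stood at 14.2%, 21.3%, 9.13% and 13.4% of Ptprc in Ly86 tumors 1 to 4, against 2.11%, 12.8% and 6.73% in Vector tumors 1 to 3. This was a log2 ratio difference of 1.29 with an exact permutation p of 0.0857. The 2.11% of Vector tumor 1 rests on pieces with 0.16 and 0.05 TPM of Klrc1, near the 0.01 TPM step of the values. The Eomes ratio lay in the other direction, at 2.35% to 3.35% of Ptprc in Ly86 tumors and 3.42% to 7.95% in Vector tumors. In this ratio the Eomes groups did not overlap, but Ly86 tumor 3 at 3.35% and Vector tumor 2 at 3.42% nearly met. Vector tumor 2 joins pieces with 2.26 and 0.48 TPM of Eomes. The ratio was not examined for single pieces or with a tumor left out. Its log2 ratio difference of -0.73 gave p = 0.0286 in the exact permutation test, the lower limit with 35 ways of assigning the tumors. Eomes itself differed by 0.20 log2(TPM + 1) units and Ptprc by 1.32, and no share of all genes is given for this ratio. Xcl1 amounted to 6.18% to 12.8% of Ptprc in Ly86 tumors and 3.94% to 23.6% in Vector tumors. Against Cd3e, Klrc1 stood at 73.5% ± 12.4 in Ly86 tumors (SD, n = 4) and 45.04% ± 20.1 in Vector tumors (SD, n = 3), with an exact permutation p of 0.0857, and the other 7 log2 ratio differences were negative. The lowest Klrc1 ratio to Cd3e, 21.9%, was again that of Vector tumor 1. Over these 16 ratios the smallest adjusted exact p was 0.457. The ratios of mean TPM were chosen after the data were seen. As differences of log2(TPM + 1), 7 of the 8 ratios to Ptprc and 7 of the 8 to Cd3e were negative, with medians of -0.60 and -0.57. On that scale 4 of the 16 ratios had every Ly86 tumor below the Vector tumors. They were those of Klrb1c and Eomes to Ptprc and of Klrb1c and Klrc2 to Cd3e. Each had an exact permutation p of 0.0286 and an adjusted p of 0.114. No share of all genes is given for this count. Klrb1c, Eomes and Klrc2 averaged 0.88, 1.05 and 0.49 TPM. With 1 added before the log, genes this low can differ little, while Ptprc averaged 1.32 and Cd3e 1.29 higher in Ly86 tumors. A negative ratio was thus largely set in advance for them, so these p-values are no result about these genes. As ratios of mean TPM, only that of Eomes to Ptprc still lacked overlap, and that of Klrb1c to Ptprc differed by 0.066. On the log2(TPM + 1) scale, leaving out Vector tumor 1 made the median -0.12 relative to Ptprc and -0.19 relative to Cd3e. Leaving out Vector tumor 3 made it -0.96 relative to Ptprc, and leaving out Vector tumor 2 made it -1.01 relative to Cd3e. The direction relative to Ptprc thus turned with the scale, as the median was 0.18 for the ratios of mean TPM.

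**Figure D4:**
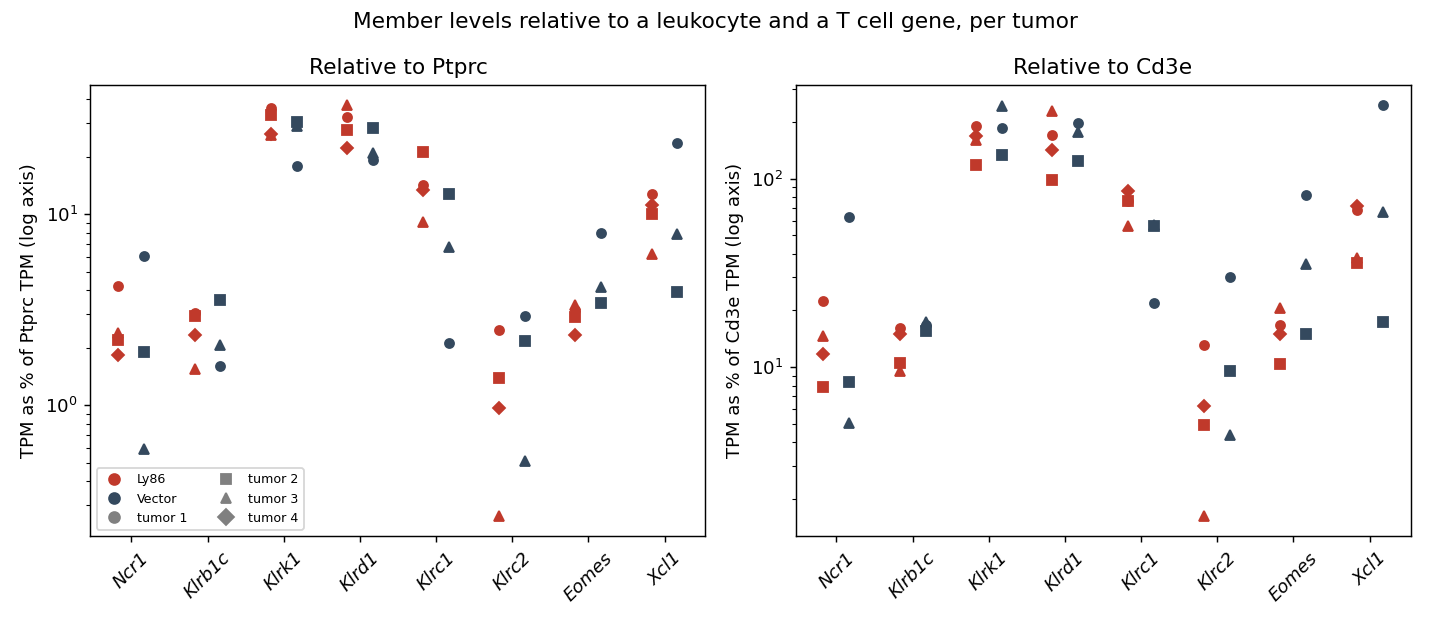
TPM of each of the 8 genes as a percentage of Ptprc (left) and Cd3e (right) TPM on log axes, with 1 symbol per tumor. Klrk1 and Klrd1 lie in overlapping bands in both groups, Eomes lies lower relative to Ptprc in Ly86 tumors, and Vector tumor 1 is the highest for Xcl1 and Eomes and the lowest for Klrc1.

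Among the adaptors that carry the receptors' signals, limma called 0 of 13 tested genes at an adjusted p under 0.05. It counted 6 as higher at an unadjusted p under 0.05, a mark met by 5.78% of all tested genes in that direction. Ptprc met it too, with an unadjusted limma p of 0.036. Hcst, the gene of DAP10, differed by 1.89 (SE 0.43, adjusted p = 0.437 in limma), with 6.89 to 21.5 TPM in Ly86 and 0.51 to 17.2 TPM in Vector libraries. The Hcst groups did not overlap, with an exact permutation p of 0.0286. The same lack of overlap was found for 4 genes of the adaptor list with Hcst, 4 of 7 macrophage markers and 4.71% of all tested genes. Tyrobp, the gene of DAP12, which macrophages also express, differed by 1.12 (SE 0.43, limma adjusted p = 0.449). Inpp5d, a lipid phosphatase that restrains receptor signaling, differed by 0.87 (SE 0.29) and Cd247, the zeta chain, by 0.86 (SE 0.35). Of 7 macrophage markers, 6 were higher at an unadjusted limma p under 0.05.

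None of the ligand genes passed the limma test after adjustment, and at an unadjusted p under 0.05 limma counted 1 of the 7 tested, Clec2d. Of all tested genes, 5.78% were higher at that mark. For the NKG2D ligands, Raet1d differed by -0.047 (SE 0.18), Raet1e by 0.16 (SE 0.13), Ulbp1 by -0.049 (SE 0.18) and H60b by -0.18 (SE 0.27), with limma adjusted p from 0.692 to 0.953. Their summed level with H60c was 24.7 to 34.0 TPM in Ly86 and 24.8 to 31.6 TPM in Vector libraries. H2-T23, which encodes Qa-1, differed by 1.498 (SE 0.77, limma adjusted p = 0.520), with 190 to 517 TPM in Ly86 and 20.1 to 451 TPM in Vector libraries. Clec2d, the ligand of the inhibitory receptor Klrb1b, differed by 1.73 (SE 0.31, limma adjusted p = 0.394). Its groups did not overlap, as was so for 4.71% of all tested genes. Clec2d was named for its small unadjusted p, so the lack of overlap adds no separate support.

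Xcr1, the Xcl1 receptor, averaged 0.86 TPM and stayed under the filter. It held 0.46 to 1.86 TPM in Ly86 and 0 to 0.66 TPM in Vector libraries, a difference of 0.78 log2 units with an exact permutation p of 0.0857. In its list of cross-presenting dendritic cell genes, limma called 0 of 7 tested genes. It counted 2 as higher at an unadjusted p under 0.05 (5.78% of all tested genes), Clec9a at 0.86 (SE 0.32) and Tlr3 at 0.62 (SE 0.19). Flt3l, a growth factor of dendritic cells that NK cells can supply, differed by 0.94 (SE 0.33), Il18, which activates NK cells, by 0.62, and Il15, which sustains them, by 0.51 (SE 0.27), in a list with 0 of 4 tested genes called.

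Of 31 other NK receptor genes, 13 were tested, limma called 0 of them, and 2 were higher at an unadjusted p under 0.05, Cd226 at 1.45 (SE 0.31) and Slamf7 at 1.45 (SE 0.54). For this and the lists below, 5.78% of all tested genes were higher and 4.97% lower at that mark. The median difference over all 31 receptor genes was 0.39 log2 units. Klre1, which neighbours Klrd1 and was singled out after its values were seen, held 0.31 to 1.84 TPM in Ly86 and 0.08 to 0.94 TPM in Vector libraries. Its tumor groups did not overlap, as was so for 3.07% of all genes in the table. Among 11 tested NK transcription factors, 0 passed, and at an unadjusted limma p under 0.05 Id2 was higher by 0.30 (SE 0.10) and Ets1 lower, at -0.26 (SE 0.086). For the 9 cytotoxic effectors 0 passed and 5 were higher at an unadjusted limma p under 0.05, among them Prf1 at 1.81 (SE 0.56) and Nkg7 at 1.86 (SE 0.69). Of the markers of group 1 innate lymphoid cells, which share Ncr1 and Klrb1c with NK cells, 3 of 5 were higher at that mark (Il7r, Cd200r1 and Cxcr6), and Itga1 differed by -0.39 (SE 0.20). Their median difference was 1.03, against 0.89 for T cell and 1.25 for macrophage markers. Which cells held these transcripts was not tested. For groups 2 and 3, 2 of 5 genes with values were tested, and Il1rl1 differed by 1.45 (SE 0.32). B cell markers gave 0 of 1 tested genes at that mark.

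Likeness of profile was measured over the 10 libraries as the root mean square difference between log2(TPM + 1) profiles, each centred on its own mean. Only genes with a mean of at least 1 TPM were searched, leaving out Gm and Rik names. Ncr1, Klrb1c and Klrc2 could thus not be named as nearest genes. Klrc1 was most like Cd3e at 0.25 and Prf1 at 0.26, and Klrd1 most like Ifng at 0.27 and Trac at 0.27. Klrk1 was nearest to Oas3 at 0.25 and Itgb2 at 0.25. These distances compare with profile sizes of 1.17 for Klrc1, 1.14 for Klrd1 and 1.28 for Klrk1. Xcl1 was nearest to other genes at larger distances, with Prr33 at 0.36 and Ank1 at 0.42 and a profile size of 0.92. The scarce genes had smaller profiles, of 0.61 for Ncr1, 0.62 for Klrb1c, 0.48 for Klrc2 and 0.40 for Eomes. Nearest to Ncr1 were Prkcd at 0.24 and Slc25a45 at 0.26, and nearest to Klrb1c were Birc3 at 0.13 and Inpp5j at 0.15. Klrc2 was nearest to Atp8b2 at 0.17 and Dclre1c at 0.18, and Eomes to App at 0.090 and Diaph1 at 0.10. Pieces share a tumor and low genes share the pseudocount, so these distances are a description.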

How the data were processed

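Polyadenylated RNA from frozen tumors, isolated with TRIzol, was sequenced on a NovaSeq instrument, per the labels. Per the submitters' processing notes, STAR 2.7.10b and RSEM 1.3.3 were used with mouse build mm39. The deposited values are log2(TPM + 1), a scale read from the values, since raising 2 to them and subtracting 1 gave multiples of 0.01 TPM for 99.9% of values (tolerance 0.0001 hundredths) and sums of 994679 to 996446 per library. TPM keeps no depth, so no counting interval is given.

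The replicate was the tumor, 4 Ly86 and 3 Vector, with log2 values averaged over its pieces. The labels do not say that each tumor came from its own mouse, and p-values reflect only how much the sampled tumors vary, which may be in part technical. Genes with a mean of at least 1 TPM over the tumors were fitted with limma 3.58.1 in R 4.3.3 (eBayes with trend), with Benjamini-Hochberg adjustment over 14556 genes and a threshold of 0.05. Single genes and ratios were compared by two-sided exact permutation over 35 assignments of 7 tumors, where the smallest p is 0.0286. The fit was tried on simulated data, drawn independently for each gene and tumor with an SD pooled over the groups. Real groups can spread unequally, as for Klrd1 with SDs of 0.37 in Ly86 and 1.27 in Vector tumors. That trial therefore does not show how the fit performs on such genes. Named genes were the 8 genes, their direct partners, the 2 to 4 members of each list with the smallest unadjusted p, and the 2 genes most like each of the 8, with Klrc3 and Klre1 added after their values were seen. The genes and lists were chosen with earlier results of these data known. Alternatives covered pseudocounts, filters, scaling, pieces, limma settings, leaving out each tumor, and a block for the tumor number. Promoter sequences are from RefSeq (GRCm38.p6), a different build from the authors', so they carry no expression values by position. Figures were drawn with matplotlib 3.10.9.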

Additional observations from a re-analysis of the deposited data

Results flagged for a closer look

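Xcl1 in the Ly86 tumors was marked because 1 tumor lay far from the others. Ly86 tumor 3, at 1.26 log2(TPM + 1), was apart from the other 3 at 2.41, 2.43 and 2.51, and the gap took up 0.924 of the group's range, above the 95% critical value of Dixon's test for 4 samples. Chance marks about 1 in 20 groups, and 24 were examined. The same tumor was also the lowest Ly86 tumor for the other 7 genes and for Ptprc and Cd3e. The Xcl1 value of tumor 1 is itself the mean of pieces at 1.21 and 3.61.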

How the results depend on the processing

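The 8 genes kept a positive median difference under all 22 alternatives, from 0.42 with first pieces alone to 1.43 with a pseudocount of 0.1. The count past the adjusted threshold was 0 except for 1 with array weights, where 12.6% of all genes passed. The count at an unadjusted p under 0.05, 3 as reported, was 1 with a minimum of 5 TPM (2 genes tested, 5.56% of all genes higher at that p), 1 with TPM of pieces averaged before the log (3% of all genes), 0 with first pieces only (0.839%), 4 when Vector tumor 2 kept only its second piece (4 tested, 11.1%), and between 0 and 3 with a tumor left out (3.43% to 8.6%). The number of genes without overlap between groups, 0 as reported, was 1 with a pseudocount of 0.1, 2 with second pieces only, 3 when Vector tumor 2 kept only its second piece, and between 0 and 4 with a tumor left out. No share of all genes is given beside these counts, so they are not read as a result about the 8 genes. The median relative to Ptprc was -0.60, but 0.0074 with a pseudocount of 0.1 and 0.18 as a ratio of mean TPM, and between -0.96 and -0.12 with a tumor left out. Relative to Cd3e it was -0.57, -0.29 as that ratio, and between -1.01 and -0.19 with a tumor left out. Sign changes were seen for Klrb1c (-0.019) and Klrc2 (-0.11) with first pieces only and for Eomes without Vector tumor 1, where leaving out a tumor gave -0.0014 to 0.33. The causes were not tested.

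Same-numbered tumors of the groups did not deviate together (correlations of -0.17, -0.11 and -0.31 over genes). So few values, taken from the means of small groups, cannot settle whether the number pairs the tumors. With the number as a replicate block the median was 0.69 and 0 of the 8 genes were at an unadjusted p under 0.05 (2.48% of all genes higher). Levels near or under 1 TPM, those of Ncr1, Klrb1c, Klrc2 and Eomes, limit what these libraries can show.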
